A study of Homo sapiens with 8 samples.

Results

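ATAC-seq, in which the Tn5 transposase inserts sequencing adapters into accessible DNA, was performed at 4 stages of the differentiation of RUES2 cells, an established human embryonic stem cell line, into cardiomyocytes. The regions described here, called transient, had a peak in all 4 libraries of the intermediate stages and in none of the 4 libraries of the ends. The intermediate stages were mesoderm (MES, day 2) and cardiac progenitors (CP, day 5), and the ends were stem cells (ESC, day 0) and cardiomyocytes (CM, day 14), with 2 libraries at each stage. All groups came from this one line and had been seeded with Y-27632, a ROCK inhibitor, and then given CHIR-99021, an activator of Wnt signaling, so that ESC cells too had been exposed to it for a day. MES cells had next received a higher concentration of CHIR-99021 in RBA medium, CP cells in addition the Wnt inhibitor Xav-939 from day 3, and CM cells then RBA without inhibitors and a medium with B27. Of 285853 regions obtained by merging the peaks of all 8 libraries on chromosomes 1 to 22 and X, 2007 were transient, which is 0.702%. Peaks chose these regions, so their presence in MES and CP and their absence in ESC and CM are given as a description with no test.

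During gastrulation, epiblast cells pass through the primitive streak, where Wnt, NODAL, BMP and FGF signals induce mesoderm and endoderm under T-box and forkhead transcription factors such as EOMES and FOXA2. Part of this mesoderm migrates out, becomes lateral plate mesoderm and gives rise to cardiac progenitors, in which GATA, HAND, ISL1 and T-box factors act. Much of the DNA that changes accessibility in development lies far from promoters, in enhancers to which such factors bind through short recognition sequences. These cells may be mixtures, and in a bulk library a weaker peak in all cells and a peak in fewer cells cannot be told apart.

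Sequences of 10 transient regions are shown first, since the sequence content of the regions is described below. Each is a stretch of 300 bases of the hg38 reference around the summit of the peak with the highest −log10 q, on the plus strand. Capitals mark matches on either strand to the GATA consensus AGATAA, the FOX (forkhead) consensus TGTTTAC, the bicoid homeobox consensus TAATCC and the T-box consensus AGGTGTGA, none of which contains another. Of matches to one consensus that overlap, only the leftmost is marked. The first 4 belong to the transient regions with the highest peaks, the next 3 to the strongest transient regions next to genes of the primitive streak, of cardiac mesoderm and of the Wnt pathway. The last 3, chosen after their values were seen, are among the strongest regions with both a GATA and a FOX match within 100 bp of the summit. Regions are named by the protein-coding gene with the nearest transcription start site (TSS), which need not be the gene on which they act.
Region near FAT1, chr4:187304150-187304449: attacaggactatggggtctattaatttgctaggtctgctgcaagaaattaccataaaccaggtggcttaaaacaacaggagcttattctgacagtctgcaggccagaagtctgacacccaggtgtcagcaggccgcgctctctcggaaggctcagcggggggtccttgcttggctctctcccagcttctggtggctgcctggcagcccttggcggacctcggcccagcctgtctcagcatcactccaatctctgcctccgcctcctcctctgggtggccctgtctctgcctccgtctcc
Region near ANK3, chr10:60246419-60246718: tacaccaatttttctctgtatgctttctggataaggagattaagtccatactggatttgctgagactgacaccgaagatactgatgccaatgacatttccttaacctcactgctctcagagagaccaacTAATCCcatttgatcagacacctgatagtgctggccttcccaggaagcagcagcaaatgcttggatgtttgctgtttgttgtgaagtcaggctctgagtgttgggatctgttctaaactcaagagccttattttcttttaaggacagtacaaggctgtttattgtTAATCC
Region near ALX1, chr12:85375013-85375312: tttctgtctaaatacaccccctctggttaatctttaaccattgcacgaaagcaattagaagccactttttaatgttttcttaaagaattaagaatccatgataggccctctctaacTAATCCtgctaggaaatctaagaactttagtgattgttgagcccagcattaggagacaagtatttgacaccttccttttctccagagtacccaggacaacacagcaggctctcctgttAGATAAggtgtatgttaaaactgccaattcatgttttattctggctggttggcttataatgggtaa
Region near SYT1, chr12:78680630-78680929: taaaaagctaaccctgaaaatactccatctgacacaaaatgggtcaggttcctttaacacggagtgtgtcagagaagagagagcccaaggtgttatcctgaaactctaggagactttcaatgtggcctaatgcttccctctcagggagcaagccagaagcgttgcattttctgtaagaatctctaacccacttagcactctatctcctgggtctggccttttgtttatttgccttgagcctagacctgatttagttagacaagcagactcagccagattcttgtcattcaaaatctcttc
Region near PDGFRA, chr4:54215381-54215680: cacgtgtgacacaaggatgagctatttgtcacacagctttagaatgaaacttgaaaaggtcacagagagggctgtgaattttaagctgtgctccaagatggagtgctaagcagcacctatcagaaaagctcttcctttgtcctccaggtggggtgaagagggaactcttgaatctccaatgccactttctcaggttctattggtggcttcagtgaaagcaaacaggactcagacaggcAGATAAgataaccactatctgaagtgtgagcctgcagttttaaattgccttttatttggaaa
Region near MEIS1, chr2:66830865-66831164: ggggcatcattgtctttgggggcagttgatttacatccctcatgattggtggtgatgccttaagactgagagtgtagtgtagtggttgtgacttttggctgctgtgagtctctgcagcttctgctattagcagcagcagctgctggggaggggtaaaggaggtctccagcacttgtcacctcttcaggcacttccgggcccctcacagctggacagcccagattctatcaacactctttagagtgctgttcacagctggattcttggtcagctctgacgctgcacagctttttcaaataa
Region near FRZB, chr2:182930044-182930343: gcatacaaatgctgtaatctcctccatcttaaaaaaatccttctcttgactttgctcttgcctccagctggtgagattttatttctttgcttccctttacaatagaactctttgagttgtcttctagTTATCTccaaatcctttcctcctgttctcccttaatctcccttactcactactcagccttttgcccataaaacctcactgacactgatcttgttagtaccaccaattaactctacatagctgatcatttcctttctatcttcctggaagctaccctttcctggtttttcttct
Region near FLRT2, chr14:83533777-83534076: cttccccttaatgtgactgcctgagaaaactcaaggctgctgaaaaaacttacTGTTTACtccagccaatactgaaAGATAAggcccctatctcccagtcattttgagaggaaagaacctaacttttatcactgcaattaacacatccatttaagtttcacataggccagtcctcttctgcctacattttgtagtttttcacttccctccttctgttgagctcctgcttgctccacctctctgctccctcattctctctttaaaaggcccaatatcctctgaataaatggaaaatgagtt
Region near ZNF622, chr5:16326572-16326871: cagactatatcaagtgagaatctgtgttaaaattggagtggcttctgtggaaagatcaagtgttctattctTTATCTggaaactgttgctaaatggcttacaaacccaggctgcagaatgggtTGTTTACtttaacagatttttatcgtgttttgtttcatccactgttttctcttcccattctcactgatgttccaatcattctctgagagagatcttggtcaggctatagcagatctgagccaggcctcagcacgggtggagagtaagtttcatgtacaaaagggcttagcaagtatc
Region near AGA, chr4:177524697-177524996: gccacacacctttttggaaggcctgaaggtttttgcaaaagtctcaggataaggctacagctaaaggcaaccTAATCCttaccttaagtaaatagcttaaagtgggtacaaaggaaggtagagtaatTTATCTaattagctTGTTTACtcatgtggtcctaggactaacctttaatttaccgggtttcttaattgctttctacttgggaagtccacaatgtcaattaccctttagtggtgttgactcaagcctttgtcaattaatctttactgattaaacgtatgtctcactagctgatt
These windows are centred on the summit, whereas the search described further on covers 200 bp around the midpoint of each region, so the matches can differ. The windows of the regions near FAT1, SYT1 and MEIS1 hold none of the 4 consensus sequences. The window near ALX1 holds a GATA and a bicoid homeobox match, and that near ANK3 has 2 bicoid homeobox matches. Those near PDGFRA and FRZB have 1 marked GATA match each. In the window near PDGFRA another AGATAA begins at the last base of the marked one and is not in capitals. In the window near AGA, a GATA, a FOX and a bicoid homeobox match lie within 100 bp upstream of the summit on the plus strand.

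Transient regions were compared in number with the other ways in which a region can be present at exactly 2 stages. A peak in both lists of ESC and MES and in no other list was found in 4554 regions, and in both lists of CP and CM in 1280 regions. For pairs of stages that do not follow each other, the counts were 254 for ESC and CP, 93 for MES and CM and 54 for ESC and CM, the mirror image of the transient pattern. Thus transient regions were fewer than regions shared by ESC and MES and more numerous than those shared by CP and CM, and the mirror pattern made up 0.0189% of the merged regions. Among the 54637 regions with a peak in all 4 MES and CP lists, 28115 (51.5%) had a peak in all 4 end lists and 2007 (3.67%) in none.

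**Figure D1:**
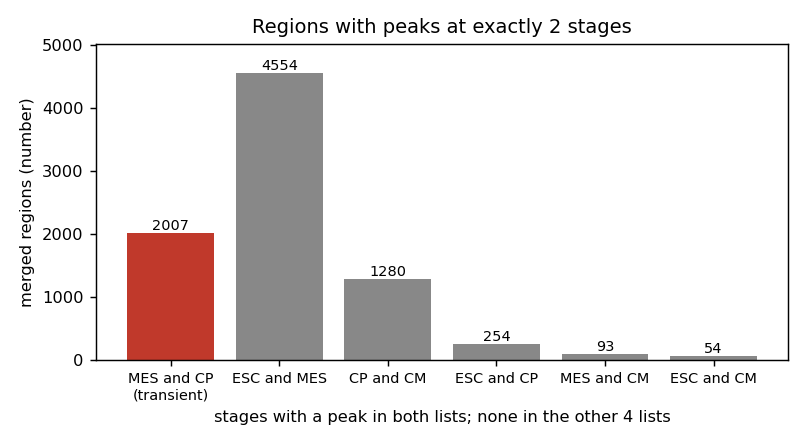
Number of merged regions (vertical axis) with a peak in both lists of exactly 2 stages and in no list of the other stages (horizontal axis). The bar of MES and CP holds the 2007 transient regions, between 4554 regions of ESC and MES and 1280 of CP and CM, and the mirror pattern of ESC and CM holds 54.

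The count depends on single libraries, because each list adds a condition. The lists held between 55777 peaks (CM replicate 2) and 156179 peaks (MES replicate 2), and 156117 in ESC replicate 2, over library backgrounds of 2.54 to 4.62 extended reads per position. Of the 3232 regions with a peak in all MES and CP lists and in a single end list, 1671 were excluded by ESC replicate 2 and 1141 by CM replicate 1, but 263 by ESC replicate 1 and 157 by CM replicate 2. Of the regions with no end peak that missed a single MES or CP list, 1896 lacked a peak in CP replicate 1, 1491 in CP replicate 2, 1033 in MES replicate 1 and 229 in MES replicate 2. The count was 3682 without ESC replicate 2, 3051 without MES replicate 1, 3914 without CP replicate 1, 3509 without CP replicate 2 and 3155 without CM replicate 1. With lists of equal length it was 808. A missing peak means that a site did not pass the q-value threshold of that library, not that the site was closed.

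The transient regions were 227 to 1403 bp wide, with a median of 462 bp, and covered 1003 kb. In 1885 of them (93.9%), each of the MES and CP libraries had a single peak. The distance to the nearest ESC or CM peak had a median of 4079 bp, and was under 1 kb for 338 regions (16.8%). Peak height is the fold of the read pileup at the summit over the local background. Its median over the 2007 regions was 5.43 and 6.14 in MES replicates 1 and 2 and 4.42 and 4.88 in CP replicates 1 and 2. Regions with a peak in all 8 lists had medians of 7.24, 7.95, 6.58 and 8.31 in the same libraries, so the typical transient region was lower than these in every MES and CP library. Taking for each transient region its lowest fold over the 4 libraries, values ranged from 2.09 to 9.95 with a median of 3.99. Over the library background, the lowest fold that passed the threshold was between 2.67 and 3.11 in the 4 end libraries, and in 1819 regions (90.6%) the lowest fold was above 3.11. The lowest −log10 q over the 4 libraries ran from 2.60 to 29.2 with a median of 6.39, and 527 regions (26.3%) had a value under 5.

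**Figure D2:**
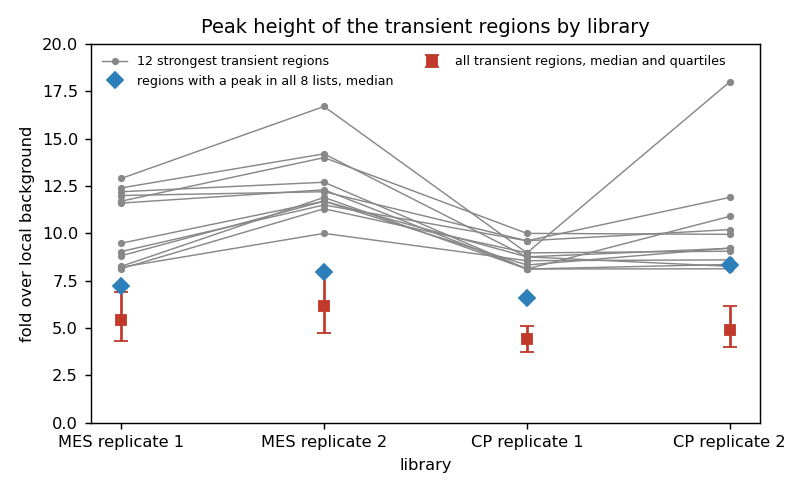
Fold over local background (vertical axis) in the 4 MES and CP libraries (horizontal axis). Squares with bars give the median and quartiles of the 2007 transient regions, diamonds the median of regions with a peak in all 8 lists, and grey lines the 12 transient regions with the highest lowest fold. The squares lie at 5.43, 6.14, 4.42 and 4.88, below the diamonds in each library.

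Of the 12 transient regions with the highest lowest fold, 10 lay 45.0 to 848 kb from the nearest coding TSS, and those near PRR16 and CMSS1 lay at 4.44 and 8.37 kb. A region at chr4:187304130-187304479, 578 kb from the nearest coding TSS (FAT1, an atypical cadherin) and in an exon of a long non-coding RNA, had folds of 11.7 and 14.0 in MES replicates 1 and 2 and of 10.0 and 9.95 in CP replicates 1 and 2. In an intron of ANK3, the gene of the membrane adaptor ankyrin-G, a region at chr10:60246371-60246994 had folds of 12.0 and 12.2 in MES and 9.61 and 11.9 in CP. In both regions the 2 MES values lay above the 2 CP values, in ANK3 only just. A region at chr12:85374952-85375333, 94.9 kb from ALX1, a homeobox factor of craniofacial mesenchyme, had folds of 9.04 and 11.5 in MES and 9.61 and 10.2 in CP. A region 183 kb from SYT1, the synaptic calcium sensor synaptotagmin, had 12.9 and 16.7 in MES and 8.97 and 9.06 in CP, so its 2 MES values lay above its 2 CP values. A region in coding exons shared by UGT2A1 and UGT2A2, which encode glucuronosyltransferases, had 12.4 and 14.2 in MES and 8.76 and 9.21 in CP. The next were near FIBIN, in an intron of DOK6, and 568 kb from BCKDHB, with lowest folds of 8.33, 8.26 and 8.21. The last 4 of the 12 lay near POLR1F, CMSS1, EPHA3 and PRR16, with lowest folds of 8.14, 8.12, 8.12 and 8.12. In the region near POLR1F, the folds of 8.14, 11.3 and 8.97 were joined by one of 18.0 in CP replicate 2.

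At the threshold, 3 transient regions had the lowest −log10 q. One 423 kb from SOX6 had folds of 5.16 and 7.54 in MES and of 2.87 and 5.86 in CP. One in a UTR of PMEPA1, 30.0 kb from ZBP1, had 3.73 and 5.33 in MES and 2.46 and 2.71 in CP, and one near ADAMTS2 had 4.22 and 4.46 in MES and 2.80 and 4.93 in CP. Just outside, the weakest single end peaks were in CM replicate 1 near FOXL1 (fold 2.49, against a lowest MES or CP fold of 3.23) and near TENM4 (2.48 against 3.71), and in ESC replicate 2 near TTC39A (2.51 against 3.13). Over the 3232 regions with 1 end peak, that peak had a median fold of 4.08.

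The regions were then compared between MES and CP, a contrast that did not choose them. limma was fitted to the log2 fold of all 54637 regions with a peak in the 4 lists, after centring each library on its median. With all libraries, 1279 of 2007 transient regions (63.7%) had a negative difference of CP minus MES, with a median of −0.15 (log2), against a median of 0.07 and 40.7% negative over all regions tested. At a Benjamini-Hochberg adjusted p under 0.05 over all regions, 116 transient regions (5.78%) were higher in MES, against 0.913% of all regions, and 13 (0.648%) were higher in CP, against 0.712%. At an unadjusted p under 0.05 the counts were 550 (27.4%) and 150 (7.47%). No share over all regions was obtained at this threshold, here or under other settings, so these counts cannot be set against it. The calls at the adjusted threshold are fragile. Without centring, which moved the median of all regions from 0.0655 to −0.065, no region was called in either direction by limma (584 and 32 transient regions at an unadjusted p under 0.05), and the transient median was −0.28. Leaving out a MES or CP library leaves 1 library at that stage, so only median differences are given. Without MES replicate 2 the median difference was −0.114 over the then 2253 transient regions, against 0.0418 over all regions tested. Without MES replicate 1 the median difference of the then 3051 transient regions was 0.014 and no longer negative. It still lay below the median of all regions tested, 0.0838. Without CP replicate 1 the median difference was −0.183 over the then 3914 transient regions, against 0.0463 over all regions. Without CP replicate 2 it was −0.0727 over 3509 transient regions, against 0.106. Leaving out an end library changes which regions are transient, while the fit uses MES and CP libraries only. The calls higher in CP were then 36 of 3155 without CM replicate 1 and 23 of 3682 without ESC replicate 2. Over all regions they were 389 of 54660 and 373 of 54682.

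The lowest adjusted p-values among regions higher in MES were found next to genes of different kinds. A region 233 kb from EPHA7, an ephrin receptor of cell sorting and axon guidance, had folds of 15.2 and 14.7 in MES and 4.06 and 4.41 in CP, with a difference of −1.69 ± 0.19 (log2, SE; limma adjusted p = 0.00934). In an intron of NEK7, a kinase of mitosis, folds were 12.2 and 13.1 in MES and 4.06 and 4.41 in CP. A region 648 kb from SERPINB8, a protease inhibitor, had 16.1 and 15.9 in MES and 4.70 and 6.27 in CP. In these 3 regions both MES values were more than 2 times both CP values. Regions near CCDC150 (12.3 and 12.5 in MES, 4.06 and 4.88 in CP) and GRM8, a glutamate receptor (11.6 and 13.2, 4.27 and 3.95), had differences of −1.35 ± 0.19 and −1.46 ± 0.20 (limma adjusted p = 0.0103 and 0.0111). Among regions higher in CP, one in an intron of SCN3A, a sodium channel gene, had folds of 3.84 and 4.45 in MES and 6.41 and 10.3 in CP, a difference of 1.1 ± 0.19 (limma adjusted p = 0.0218). One in an intron of KCNMB2, a potassium channel subunit, had 3.32 and 3.67 in MES and 5.13 and 8.02 in CP, and one 306 kb from GBE1, the glycogen branching enzyme, had 7.46 and 8.91 in MES and 12.0 and 18.7 in CP. The remaining 2 of the 5 were near UBE2V2 (3.17 and 3.69, 5.05 and 7.14) and in an intron of FOXN4, a forkhead factor (2.79 and 3.83, 5.14 and 6.15). In each of these 5 regions CP replicate 2 was the highest library. None of these 10 differences passed without centring or without either MES library.

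Most transient regions lay outside promoters. Of the 2007, 1119 (55.8%) had their midpoint in intergenic DNA and 796 (39.7%) in an intron, against 49.1% and 38.6% of all merged regions. Within 1 kb of a coding TSS there were 31, which is 1.54% (95% Wilson interval 1.09 to 2.18%), against 8.27% of all merged regions, 3.32% of the regions of ESC and MES only and 1.88% of those of CP and CM only. The share was 3.39% without ESC replicate 2 and 2.48% with lists of equal length. Regions with a peak in all 8 lists had 49.1%. The median distance to a coding TSS was 71671 bp, against 45062 bp for all merged regions, and 825 transient regions (41.1%) were over 100 kb away. Within 1 kb of any annotated start, non-coding transcripts included, there were 149 (7.42%), against 15.0% of all merged regions. The median GC content of the central 200 bp was 49.5%, against 52.0% for all merged regions and 63.5% for regions in all 8 lists.

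By chromosome, the share of merged regions that were transient ran from 0.268% on chromosome 19 (17 of 6354, interval 0.167 to 0.428%) to 1.11% on the X chromosome (109 of 9846, 0.919 to 1.33%). Chromosomes 18 and 2 followed with 1.02% and 0.898%. Transient regions were mostly scattered: when neighbours up to 100 kb apart were joined, 1632 of them stood alone, 166 groups held 2 regions and 14 groups held 3 or more. A group of 4 lay within 43.3 kb in GPC6, a glypican, which is a cell-surface proteoglycan. Groups of 3 lay near NTN1, the guidance cue netrin-1, near SOX6, near HMGA2 and MSRB3, and near CXCR4, among others.

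The central 200 bp of each region were searched for 21 consensus sequences on both strands. GATA factors, of which GATA4 and GATA6 act in endoderm and cardiac mesoderm, bind AGATAA, and 605 transient regions (30.1%, interval 28.2 to 32.2%) held it, against 11.2% of all merged regions. The share was 9.49% in regions of ESC and MES only and 30.3% in those of CP and CM only, so in this respect the transient regions stood with the latter. For the forkhead consensus TGTTTAC, bound by factors such as FOXA2, FOXC1 and FOXF1, the share was 8.82% (177 regions, 7.66 to 10.1%), against 3.23% of all merged regions, 4.00% for ESC and MES only and 3.12% for CP and CM only. The bicoid homeobox consensus TAATCC, bound by GSC and OTX2, was held by 13.2% (11.8 to 14.8%), against 7.08%, 7.64% and 5.70% in the same sets. The T-box consensus AGGTGTGA, bound by TBXT, EOMES and TBX6, was held by 3.44% (2.73 to 4.33%), against 1.76%, 2.17% and 0.781%. For the FOX, bicoid homeobox and T-box sequences, the interval of the transient regions lay above those of all 3 other sets. Any of these 4 was found in 937 transient regions (46.7%) and in 21% of all merged regions. GATA and FOX matches occurred together in 50 transient regions (2.49%), against 0.475%. Since each was more frequent by itself in transient regions, this contrast does not show that the matches go together.

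The shares of other regions of like base composition were lower too. Weighted to the GC content of the transient regions in bands of 5 percentage points, the other merged regions had the GATA consensus in 13.5%, FOX in 3.67%, bicoid homeobox in 8.06% and T-box in 1.85%. With lists of equal length the GATA share of the transient regions was 24.4%, and without ESC replicate 2 it was 22%. The TCF/LEF consensus ATCAAAG, at which β-catenin acts in Wnt signaling, was held by 4.19%, against 2.62% of all merged regions, 3.93% for ESC and MES only and 4.30% for CP and CM only. The MEIS consensus TGACAG, at 18.2% against 16.3%, was far from the 35.9% of regions of CP and CM only. The octamer ATGCAAAT, bound by OCT4, was held by 1.64%, near the 1.55% of all merged regions and the 1.86% of other regions at matched GC content. It was at 5.16% for ESC and MES only and 0.156% for CP and CM only. Some sequences were less frequent in transient regions than in all merged regions. They were the CTCF motif (0.149% against 0.996%), the SP/KLF sequence GGGCGGG (3.49% against 5.84%), the MEF2 motif (0.548% against 1.08%), the AP-1 consensus TGANTCA (5.73% against 7.83%) and the TEAD consensus ACATTCC (3.04% against 4.15%). The NFY sequence CCAATCA was at 2.19% against 2.76%. For SP/KLF the order turned at matched GC content, where the other merged regions had 2.77%. For FOXH1 (AATNCACA), SOX (ACAATGG), E-box (CAGATG), NKX (TNAAGTG), HOX-PBX (TGATTNAT), ETS (CAGGAAG), RUNX (TGTGGTT) and nuclear receptors (AGGTCA), the ratio of transient to all merged regions was 0.939 to 1.19.

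**Figure D3:**
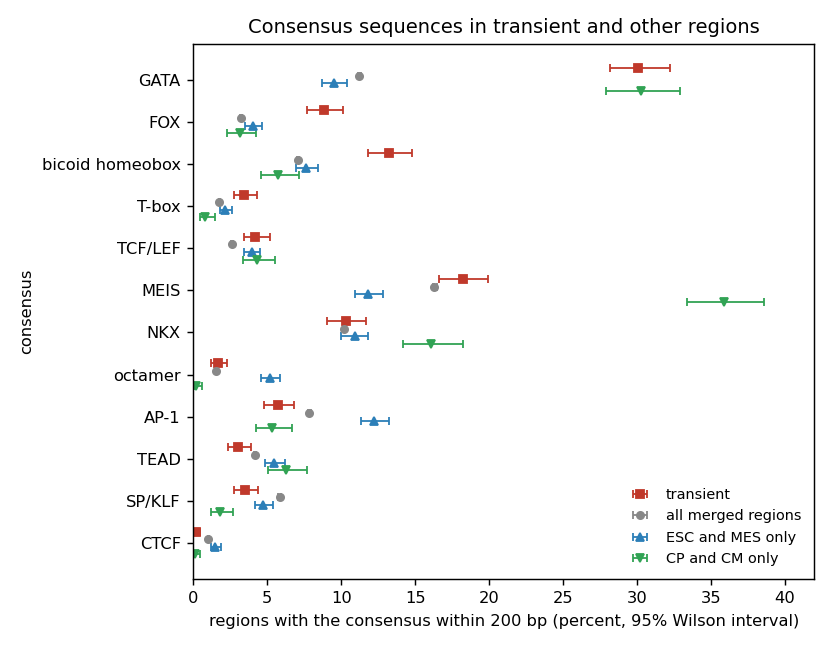
Share of regions with a consensus sequence in their central 200 bp (horizontal axis, percent, with 95% Wilson intervals) for 12 of the sequences searched (vertical axis). Squares are the 2007 transient regions, circles all merged regions, upward triangles regions of ESC and MES only, downward triangles those of CP and CM only. GATA stands at 30.1% in transient regions and 30.3% in regions of CP and CM only, and FOX at 8.82% against 3.12%.

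Matches were concentrated at the summits. Within 40 bp of the summit, a bin of 20 bp held a GATA match in 4.98% of the transient regions on average, against 1.83% in bins between 200 and 300 bp away, a ratio of 2.73. For FOX the values were 1.41% and 0.369%, a ratio of 3.82, and for bicoid homeobox 1.84% and 0.963%, a ratio of 1.91. T-box matches were rarer, with 0.461% and 0.109%. In regions of CP and CM only, GATA had a like ratio of 2.98, but FOX 0.786 and bicoid homeobox 0.652. In regions of ESC and MES only, GATA had 0.537 and FOX 1.66. Among the 116 transient regions called higher in MES, 39 (33.6%, interval 25.7 to 42.6%) held GATA and 15 (12.9%, 8.00 to 20.2%) held FOX. Of the 13 called higher in CP, 6 held GATA and 2 held FOX.

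**Figure D4:**
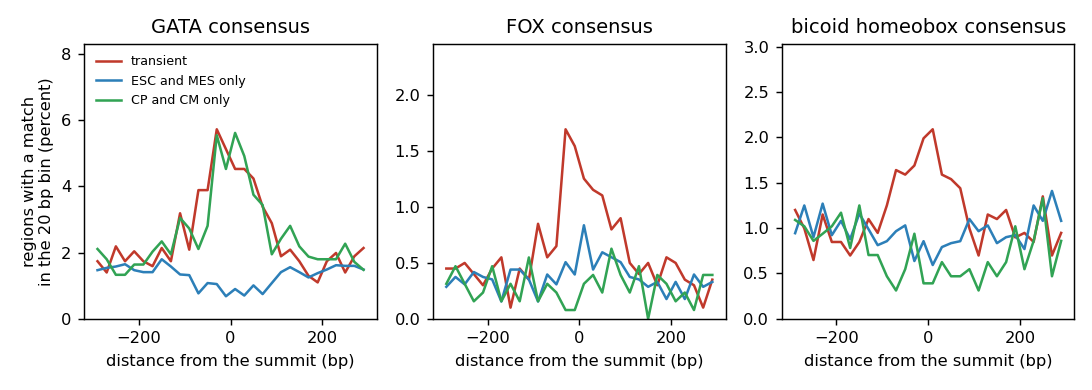
Share of regions with a match in each bin of 20 bp (vertical axis, percent) against the distance of the bin from the summit (horizontal axis, bp), for the GATA, FOX and bicoid homeobox consensus. Lines are transient regions, regions of ESC and MES only and regions of CP and CM only. In transient regions GATA is highest at −30 bp with 5.73%, FOX at −30 bp with 1.69% and bicoid homeobox at 10 bp with 2.09%.

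Whether the rest of the peaks differed between intermediate and end libraries was tested with all peaks in transient regions left out. The log2 number of peaks was 16.8 ± 0.286 in MES and CP and 16.5 ± 0.611 in ESC and CM (mean ± SD, n = 4 libraries each; two-sided exact permutation test over 70 assignments, p = 0.400, adjusted 0.724 over 24 measures). The share of peaks with the GATA consensus was 6.36 and 6.19% in ESC replicates 1 and 2 and 10.3 and 12.1% in CM. In MES it was 10.1 and 10.7% and in CP 8.95 and 12.4%. It was low in both ESC libraries and overlapped between CM and the intermediate stages (exact permutation p = 0.286, adjusted 0.724). The share with the FOX consensus was 2.89 and 2.65% in ESC and 2.57 and 2.28% in CM, whereas MES had 3.74 and 3.8% and CP 3.18 and 3.46%. All 4 intermediate libraries lay above all 4 end libraries, with means of 3.54 ± 0.288% and 2.60 ± 0.253% (exact permutation p = 0.0286, the smallest that this design allows, adjusted 0.600). The bicoid homeobox share was 7.15 and 7.64% in MES and 5.37 and 5.73% in CP. In ESC it was 5.40 and 5.58% and in CM 4.58 and 4.45%. The T-box share was 2.03 and 2.21% in MES and 1.33 and 1.06% in CP. In ESC it was 1.27 and 1.35% and in CM 1.06 and 0.896%. For both sequences CP overlapped ESC, and only MES lay above all other libraries. No measure passed 0.05 after adjustment, which with 24 measures could not have been reached by one measure alone.

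The nearest genes of the transient regions numbered 1604 of 19618 coding genes (8.18%), and 1319 of them had a single region. Most regions were nearest to CELF4 (7 of its 270 merged regions), an RNA-binding protein of neurons. DMD, the dystrophin gene, had 6 of 210, CTNNA2, the gene of a neural α-catenin, 6 of 222, and GOT2, an aspartate aminotransferase, 6 of 111. CDH2, which encodes N-cadherin and is switched on as mesoderm forms, had 5 of 180, GPC6 5 of 83, the transcriptional corepressor BCOR 5 of 184, and PRR20A, one of a group of near-identical copies, 5 of 131. EPHA3 and MDGA2, both of cell adhesion and guidance, had 4 of 105 and 4 of 117. All 6 DMD regions lay in its introns, the highest with folds of 11.6 and 11.5 in MES and 6.53 and 6.04 in CP. One of the CTNNA2 regions, with 8.59 and 9.76 in MES and 4.06 and 4.22 in CP, was called higher in MES (difference −1.02 ± 0.19, limma adjusted p = 0.0281).

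Gene lists for developmental roles and pathways were compared with the share over all merged regions, 0.702%, and their calls between MES and CP are to be read against the 5.78% of all transient regions that were called higher in MES. Of the 2007 transient regions, 981 had both MES folds above both CP folds, and 158 had the reverse, on folds that were not centred. Without centring, the median difference of CP minus MES was −0.065 (log2) over all regions tested and −0.28 over transient regions. No share with either order was obtained over all regions tested, so these counts do not show a trait of the transient regions. The order of MES and CP values near single genes is to be read against these counts. The strongest region of a gene is the one with the highest lowest fold. Factors of the primitive streak and mesendoderm had 9 transient of 478 regions (1.88%, interval 0.994 to 3.54%), next to 6 of the 22 genes. The highest was 13.7 kb from PDGFRA, a receptor of early mesoderm, with folds of 6.19 and 7.12 in MES and 4.94 and 5.50 in CP. A region near SP8 had 4.52 and 7.07 in MES and 5.89 and 5.58 in CP. One 166 kb from EOMES, a T-box factor that directs mesoderm and endoderm, had 4.42 and 4.33 in MES and 3.85 and 6.74 in CP, and one 88.3 kb from FOXA2, a forkhead factor of endoderm and the anterior streak, had 6.17 and 6.68 in MES and 7.20 and 3.41 in CP. The MES and CP values overlapped for SP8, EOMES and FOXA2, and both MES values lay above both CP values for PDGFRA. SP5 and GSC were the other 2 genes, and none of the 9 regions was called in either direction.

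Cardiac and lateral plate mesoderm factors had 9 of 1358 regions (0.663%, 0.349 to 1.25%), which is near the share over all regions, although they touched 9 of 27 genes. MEIS1, a homeobox partner of HOX factors, had the highest, 390 kb away, with 7.03 and 6.79 in MES and 5.16 and 4.96 in CP. A region 288 kb from ISL1, a factor of the second heart field, had 4.97 and 9.11 in MES and 4.27 and 5.34 in CP. One 222 kb from MEF2C, a muscle and heart factor, had 4.75 and 7.97 in MES and 4.27 and 6.27 in CP. One in an intron of GMDS, 155 kb from FOXC1, a forkhead factor of cardiac and head mesoderm, had 6.39 and 5.85 in MES and 3.97 and 4.85 in CP. The other genes were MEIS2, HAND1, HAND2, TBX2 and EYA1, and none of the 9 regions was called.

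Among ligands, receptors and modulators, Wnt genes had 16 of 1665 regions (0.961%, 0.592 to 1.56%), next to 12 of 51 genes. They included the secreted Wnt antagonist FRZB (6.33 and 9.32 in MES, 4.91 and 5.81 in CP), the enhancer of Wnt signaling RSPO3 (8.00 and 7.39, 4.91 and 6.23) and the ligands WNT8A (7.46 and 12.1, 6.41 and 4.65) and WNT5A (6.23 and 9.27, 4.49 and 4.80). In these 4 regions both MES values lay above both CP values, an order shared by 981 of the 2007 transient regions. None of the 16 regions was called. Genes of BMP, TGF-β and NODAL signaling had 22 of 1766 regions (1.25%, 0.824 to 1.88%), next to 12 of 44 genes. Here 4 of the 22 regions were called higher in MES and none higher in CP, against 5.78% of all transient regions higher in MES, 2 near the activin receptor gene ACVR2A and 1 each near BMPER, a BMP-binding protein, and INHBA, an activin subunit. The region 261 kb from INHBA had 10.9 and 11.5 in MES and 4.27 and 7.20 in CP, a difference of −0.88 ± 0.20 (limma adjusted p = 0.0478). The strongest region nearest to ACVR2A, which was not one of those called, lay 1018 kb from its TSS. It had 8.74 and 12.7 in MES and 6.41 and 8.98 in CP. The strongest region of BMP7, a BMP ligand, lay at 263 kb and had 8.29 and 7.57 in MES and 5.16 and 5.13 in CP. The strongest of BMPER, at 253 kb and also not called, and that near TGFBR3, a TGF-β coreceptor, had lowest folds of 4.88 and 4.75.

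FGF genes had 13 of 1368 regions (0.95%, 0.556 to 1.62%), next to 11 of 32 genes. Feedback inhibitors of FGF signaling were among them, with 8.22 and 10.3 in MES and 6.84 and 6.53 in CP near SPRY1, and 7.91 and 10.1 in MES and 5.55 and 6.04 in CP near SPRED1. The ligand FGF16, with a region 460 kb away (9.27 and 9.11, 6.2 and 6.04), and ETV4, an ETS factor downstream of FGF (7.33 and 7.36, 6.17 and 4.95), followed. In these 4 regions both MES values lay above both CP values, as in 981 of the 2007 transient regions, and none was called. One region near SPRED2, with 7.33 and 10.5 in MES and 4.11 and 4.53 in CP, was called higher in MES (−0.90 ± 0.20, limma adjusted p = 0.0446). Retinoic acid genes had 5 of 550 regions (0.909%), 3 of them near the synthesizing enzymes ALDH1A2, ALDH1A1 and ALDH1A3, with lowest folds of 4.35, 4.12 and 3.06, and 1 near the receptor RARB with 3.63. Notch genes had 3 of 388 (0.773%), near MAML2, HES1 and LFNG.

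Genes of the epithelial to mesenchymal transition and of migration had 28 of 2106 regions (1.33%, 0.921 to 1.91%), next to 17 of 28 genes, many of which are long and hold many peaks. A region 498 kb from ZEB2, a repressor of E-cadherin, had 6.56 and 9.58 in MES and 6.8 and 7.58 in CP. One near SLIT2, a guidance ligand, had 6.10 and 5.87 in MES and 5.98 and 12.3 in CP. In an intron of FAT4, an atypical cadherin, the values were 6.67 and 9.01 in MES and 5.34 and 5.81 in CP, and near CDH2 they were 5.43 and 7.39 in MES and 4.91 and 6.04 in CP. The stages overlapped in the regions near ZEB2, SLIT2 and CDH2, the highest value near SLIT2 being that of CP replicate 2, and both MES values lay above both CP values in FAT4. The 2 of 28 regions of this list called higher in MES, a share near the 5.78% of all transient regions, were another region near FAT4 and one in an intron of ROBO1, a SLIT receptor, with 8.14 and 10.9 in MES and 4.49 and 4.88 in CP (−0.88 ± 0.19, limma adjusted p = 0.0438). No region of the list was called higher in CP.

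Genes of other lineages were also touched. Paraxial and intermediate mesoderm genes had 8 of 645 regions (1.24%, 0.630 to 2.43%), among them PAX9 (7.46 and 7.70 in MES, 5.77 and 6.50 in CP), TBX18 (5.20 and 4.86, 5.34 and 7.67), RIPPLY1 and FOXD1. The region near MEOX1, a homeobox gene of somites, had 6.84 and 8.86 in MES and 3.56 and 3.37 in CP and was called higher in MES (−1.04 ± 0.20, limma adjusted p = 0.0315). Endoderm genes had 7 of 324 regions (2.16%, 1.05 to 4.39%), next to the chemokine receptor CXCR4, which is also in the migration list, SOX17 and PRDM1. Of these 7 regions, 4 were nearest to CXCR4, 3 of them within 99 kb, so the share of this list rests largely on 1 locus. The CXCR4 region with the highest lowest fold had 4.92 and 5.16 in MES and 4.59 and 4.60 in CP, and another, farthest from the gene, had 6.98 and 9.0 in MES and 3.98 and 3.97 in CP. The stronger region near SOX17, an endoderm and endothelial factor, had 7.02 and 6.09 in MES and 5.00 and 4.30 in CP. Of 3 endoderm marker genes, SOX17 had a peak within 1 kb of its start in all 8 lists, FOXA2 in all but CM replicate 2, and AFP in none. The folds at the start of FOXA2 were 4.31 and 5.05 in MES and 3.34 and 3.88 in CP, against 2.65 and 2.69 in ESC and 4.18 in CM replicate 1. The part of endoderm cells in these regions was not tested.

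Endothelial and blood genes had 5 of 666 regions (0.751%), near RUNX1, SOX17 and KIT. Of 3 endothelial marker genes, CDH5 had no peak at its start in any library. PECAM1 had one in ESC replicate 2 and MES replicate 1. TIE1 had one in ESC replicate 2, MES replicate 1, CP replicate 1 and CM replicate 1. Neural genes had 4 of 902 (0.443%), near OTX2, SOX1 and SIX3. The 39 HOX genes had 1 of 156, in HOXD4. The lists of the ends had the lowest shares. Pluripotency genes had 1 of 659 regions (0.152%, 0.0268 to 0.854%). Sarcomere and cardiomyocyte genes had 2 of 765 (0.261%, 0.0717 to 0.948%), both next to NEBL, a nebulin-like protein of the Z-disc, of which the stronger had 9.85 and 11.7 in MES and 4.70 and 6.74 in CP. Intervals of most lists include 0.702%, and the lists whose interval lies above it are those of primitive streak, BMP, TGF-β and NODAL, migration and endoderm genes. Regions of one gene share a locus, so the intervals cover counting error only.

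The stage labels were checked against promoter peaks of marker genes, few of which followed the stages. NANOG, a pluripotency factor, had a peak at its start in both ESC and both MES libraries and in none of CP or CM. MYL7, an early myosin light chain of heart, had one in all MES, CP and CM libraries and in no ESC library, and MYH6, of cardiac myosin, in CP replicate 2 and both CM libraries. Other markers did not follow the labels: the pluripotency genes SOX2 and LIN28A and the cardiac genes TNNT2 and ACTN2 had peaks in all 8 lists, ACTN2 with its highest fold (9.22) in ESC replicate 1, and POU5F1 in all but CM replicate 2. The starts of the 5 MES markers, TBXT and EOMES among them, had peaks in all 8 lists, and those of MYH7 and MYL2 in none, so that these markers do not separate the stages. Of the 6 CP markers, 4 and 6 had a peak at their start in ESC replicates 1 and 2. In CP replicates 1 and 2 the numbers were 5 and 6, HAND2 having none in CP replicate 1.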

How the data were processed

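ATAC-seq peak lists of 8 libraries were analysed, 2 for each of ESC, MES, CP and CM. The series text calls the replicates biological but does not say how they were separated, so tests measure the spread between these libraries. The authors mapped reads to hg38, removed duplicates and called peaks in each library alone with MACS2, without pooling, at a shift that centres the pileup on the cut site. BWA 0.7.13, Picard, MACS2 2.1.0 and bedtools 2.26.0 are named in the submitters' processing notes. The deposited lists give for each peak the ratio of pileup to local background (the fold), the −log10 p-value and −log10 q-value, and a display score that was not used. They hold no counts, and the depth is known only through the background recovered from the fold and −log10 p of each peak.

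Peaks on chromosomes 1 to 22 and X were merged where they overlapped or touched. Transient regions, gene lists and consensus sequences were chosen with earlier results of these data known. Genes and positions came from GENCODE 44. MES was compared with CP by limma 3.58.1 in R 4.3.3, on the log2 of the highest fold of each region. Differences between 4 and 4 libraries were tested by exact permutation, two-sided. Shares have 95% Wilson intervals, which cover counting error only. The work used Python 3.11.15 and bedtools 2.31.1, and scripts were tested on simulated data.

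The regions named are the 12 with the highest lowest fold over MES and CP, the 5 of lowest adjusted p in each direction, up to 4 per gene list by lowest fold, and the 10 genes nearest to most transient regions. List regions called by limma, those in figures and others named as such were added after their values were seen. The values of 1 list region are not reported here. Alternatives were a stricter q-value (−log10 of 5 or more), equal list lengths, pileups scaled to the lowest background, 50% reciprocal overlap, each library left out, other windows, starts and normalizations, and a replicate block.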

Additional observations from a re-analysis of the deposited data

Results flagged for a closer look

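Among 24 measures in the 4 MES and CP and the 4 ESC and CM libraries, one library stood apart from the other 3 of its side. The share of peaks with the NFY sequence, outside transient regions, was 2.45% in CM replicate 1 and 3.05 to 3.08% in the other ESC and CM libraries. About 1 in 20 such checks is marked by chance alone, and the transient regions have no peak in these libraries.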

How the results depend on the processing

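The number of transient regions stayed within 1.5 times of 2007 under 8 of 14 alternatives, with 808 for lists of equal length as the lowest, and ran from 2164 to 3914 when each library was left out. Joining peaks up to 100 bp apart, chosen after seeing the data, gave 1984. The share within 1 kb of a coding TSS was 2.25% with a −log10 q of at least 5 in every list, 2.48% with lists of equal length, 7.42% with the starts of all annotated transcripts, 4.43% within 2.5 kb and 1.57 to 3.39% without single libraries. The GATA share was 24.4% with lists of equal length, 17.1% in 100 bp, 42.5% in 400 bp and 53.2% for WGATAR (all merged regions 5.95%, 20.7% and 26.9%), and 22 to 30.6% without single libraries. The regions called higher in MES and in CP numbered 0 and 0 without centring, 290 and 51 with pileup over the library background, and 23 and 4 with lists of equal length. Those higher in CP were 4 with quantile normalization and 4 with the stricter q-value. Without single libraries the counts ran from 0 to 650 and from 0 to 135. With a replicate block they were 0 and 0 (limma; 579 and 166 at an unadjusted p under 0.05), and the peak number and GATA share had exact permutation p = 0.556 and 0.389 under the block. Same-numbered MES and CP libraries deviated with r = 0.131 across 54637 regions, and with 2 numbers this shows no pairing. Both tests over libraries kept their direction and stayed above 0.05 under every alternative. The cause of these changes was not tested, except that leaving out a list removes a condition of the rule. Of the regions called by limma, the 16 followed under these settings kept their direction throughout, and all lost the call without centring, with the block and without either MES library. Without counts of reads, sites just under the q-value threshold cannot be told from closed ones.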
